A study of Rattus norvegicus with 24 samples.

Results

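The thyroid of rats kept for 2 months on a diet poor in iodine was compared with that of rats on a normal diet, both sampled at day 1 of the study's second phase and both on normal water. The 6 arrays of this comparison, 3 per group, were selected by their titles from the 24 arrays of the series. Arrays 8, 9 and 12 carried the deficient diet, and arrays 21, 22 and 24 were the controls. All rats were adult male Sprague-Dawley animals, and feeding lasted 2 months plus 1 day. The comparison asks what the diet had done to thyroid transcripts by that time. The same diet difference was also read in 2 other sets of 6 arrays. One set, on normal water, was taken after 2 months plus 14 days. The other was taken on day 1 from rats that had potassium perchlorate in the water, 95 mg per liter, for that 1 day. Its arrays 2, 3 and 6 came from the deficient diet and its arrays 15, 16 and 18 from the normal diet. Nothing in the labels ties each array to its own animal. The p-values therefore speak only of the scatter among arrays, and some of that scatter may be technical. It was estimated within the 8 groups over all 24 arrays of the series.

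Follicular cells of the thyroid take up iodide from blood through the sodium iodide symporter, pass it to the follicle lumen and attach it to thyroglobulin with the help of peroxidase and hydrogen peroxide. Hormone is then released by digesting thyroglobulin in lysosomes, and iodide left on unused tyrosines is recovered. When iodine is scarce, less hormone is made, the pituitary secretes more thyrotropin, and thyrotropin acts through its receptor and cAMP to raise uptake and, with time, to enlarge the gland and its vessels. Perchlorate competes with iodide at the symporter.

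Each value below is the signal intensity of a probe set, a group of short probes for 1 transcript, given as log2(intensity + 16) after quantile normalization. A difference is the mean of the 3 diet arrays minus the mean of the 3 control arrays on that scale, so 1 unit is a doubling of intensity + 16. Called means an adjusted p under 0.05 in the limma model described under the processing. Within a group, pairs of arrays correlated across probe sets with Pearson's r of 0.941 to 0.978, between the groups with 0.927 to 0.975, and 0 pairs of arrays were identical. Each array's deviation is the median over probe sets of its absolute difference from the median of all other arrays of the series. Among the 6 arrays, control array 22 had the largest, 0.287 against 0.145 to 0.198 in the other 5. Perchlorate array 18, which enters the shared estimate of the spread and the perchlorate comparison, had a deviation of 0.675. The RNA came from thyroid by label, and the genes that define follicular cells were bright in all 6 arrays: thyroglobulin Tg lay between 13.57 and 13.97 and the transcription factor Pax8 between 12.25 and 12.57.

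Of 18625 probe sets tested, 10 were called at day 1, a share of 0.0537%, with 8 higher and 2 lower on the deficient diet. They stand for 8 genes with 1 symbol on their brightest probe set, 1 dimmer probe set of another gene and 1 probe set with no symbol. Slc5a5, the iodide symporter itself, was among the rises. With it rose the hyaluronan-binding chain Itih3, the heparan sulfate sulfatase Sulf2, the anion transporter family member Slc26a10, the cell polarity scaffold Dlg5, and Mab21l3. The falls were those of the membrane protein Igsf8 and of C13h1orf116. Leaving out diet array 8, 9 or 12 gave 2, 1 and 3 calls, and leaving out control array 21, 22 or 24 gave 1, 3 and 6. A fit of only these groups gave 2, and a fit without array 18 gave 28. Only 1 of the 3 calls without control 22, and 1 of the 2 in the fit of only these groups, was among the 10. Only Itih3 was called under each of 16 alternative settings.

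**Figure D1:**
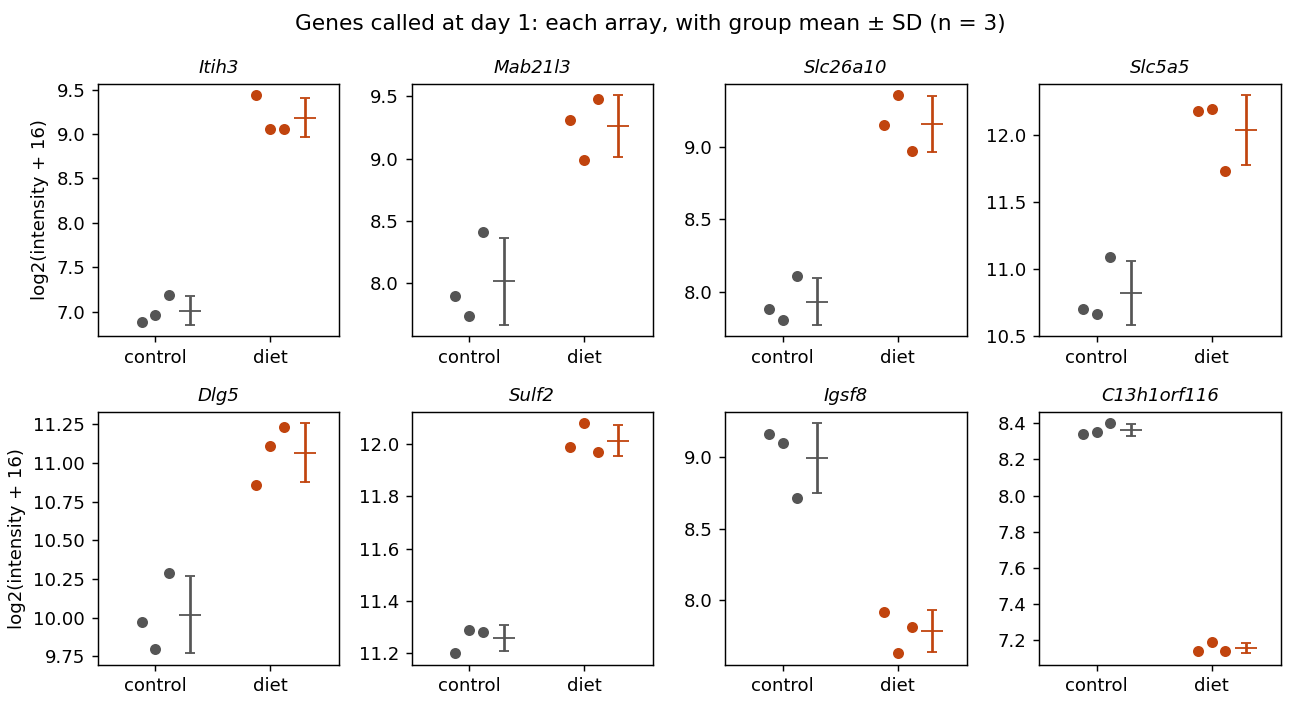
Level of the 8 called genes in each day 1 array, as log2(intensity + 16) on axes that do not start at 0. Points are arrays, in the order 21, 22, 24 for control and 8, 9, 12 for diet, and the bar beside them is the group mean with its SD (n = 3). In each panel the groups are apart, and Itih3 has the widest gap, with diet arrays at 9.06 to 9.44 and controls at 6.88 to 7.19.

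The start regions of 3 of the rising genes are shown because the data bear on their transcripts and because thyroid promoters are read by factors with known short motifs. The promoters are from RefSeq, assembly GRCr8, and run over the 250 bases before the start, 5′ to 3′ on the strand of the gene. All 8 called genes were found in that table. The motifs searched on both strands were TGACGT, the core through which cAMP-responsive factors bind, and CAAGTG, the core of sites for NKX2-1 and related homeodomain factors, and they do not overlap each other. Capitals mark CAAGTG or its reverse complement. The first is Slc5a5, on the plus strand of chromosome 16, chr16:18580455-18580704, the second Itih3, on the minus strand of the same chromosome, chr16:6123375-6123624, and the third Mab21l3, on the minus strand of chromosome 2, chr2:191960205-191960454.
Slc5a5: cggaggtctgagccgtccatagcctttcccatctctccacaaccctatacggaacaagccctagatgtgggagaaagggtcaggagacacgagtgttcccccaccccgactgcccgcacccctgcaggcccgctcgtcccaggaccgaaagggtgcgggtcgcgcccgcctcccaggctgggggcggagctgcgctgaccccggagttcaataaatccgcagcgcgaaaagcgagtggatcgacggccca
Itih3: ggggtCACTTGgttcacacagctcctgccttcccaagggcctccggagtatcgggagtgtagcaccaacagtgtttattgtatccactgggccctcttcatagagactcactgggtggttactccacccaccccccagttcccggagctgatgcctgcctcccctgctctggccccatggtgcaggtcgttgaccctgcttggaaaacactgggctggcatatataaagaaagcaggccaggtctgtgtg
Mab21l3: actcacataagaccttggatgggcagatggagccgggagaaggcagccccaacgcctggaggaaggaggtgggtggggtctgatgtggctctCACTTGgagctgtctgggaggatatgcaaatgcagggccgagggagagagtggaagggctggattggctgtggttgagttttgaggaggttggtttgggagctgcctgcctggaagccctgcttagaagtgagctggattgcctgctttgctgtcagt
CAAGTG was found in 2 of the 8 promoters, those of Itih3 and Mab21l3, against 11.7% of all 33469 promoters in the table. TGACGT was found in 0 of the 8, against 6.95% of all. A match is only a match of letters in this window.

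Slc5a5, the gene that carries iodide into the follicular cell (probe set 1369020_at), stood at 12.18, 12.19 and 11.73 in diet arrays 8, 9 and 12. In control arrays 21, 22 and 24 it stood at 10.70, 10.66 and 11.09. Every diet array was above every control, and the nearest pair was diet 12 and control 24. The difference was 1.22 (SE 0.19, adjusted p = 0.0174), a fold of 2.33. In the intensities as deposited the diet arrays read 5131, 4783 and 3474 and the controls 1251, 1666 and 2256. The call was lost when the model held these 2 groups alone (adjusted p = 0.234) and without array 8, 9, 21 or 22, where the adjusted p ran from 0.0839 to 0.126, while the difference lay between 1.14 and 1.16.

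Set beside all groups, the day 1 diet mean of Slc5a5, 12.04 ± 0.27 (SD, n = 3), was close to that after 14 more days of the diet, 11.96 ± 0.24. The controls were at 10.82 ± 0.24 on day 1 and 10.95 ± 0.30 on day 14. With perchlorate water for 1 day the mean was 11.89 ± 0.35 on normal diet and 12.01 ± 0.07 on deficient diet. After 14 days of perchlorate these means were 12.46 ± 0.17 and 12.65 ± 0.17. Only the controls of the 2 days stood below 11 on average, and the 4 groups between 11.89 and 12.04 differed by less than the larger SDs among them.

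Itih3 encodes a secreted protein that is attached as a heavy chain to hyaluronan in the extracellular matrix (probe set 1387291_at). Diet arrays 8, 9 and 12 read 9.44, 9.06 and 9.06, and control arrays 21, 22 and 24 read 6.88, 6.96 and 7.19. The 2 groups lay far apart compared with the spread inside each. The difference was 2.18 (SE 0.28, adjusted p = 0.00276), a fold of 4.52. In the deposited intensities this was 692, 557 and 529 against 82.6, 103 and 136. Itih3 was at 11.03 ± 0.72 on the diet at day 14 and at 7.23 ± 0.04 in its controls (SD, n = 3). After 1 day of perchlorate on normal diet it was at 7.27 ± 0.23, which overlapped the day 1 controls at 7.01 ± 0.16. After 1 day of perchlorate on the deficient diet it was at 10.75 ± 0.52, and after 14 days of perchlorate at 12.62 ± 0.44 without and 13.28 ± 0.10 with the deficient diet.

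Sulf2, a secreted enzyme that removes sulfate groups from heparan sulfate (probe set 1388753_at), stood at 11.99, 12.08 and 11.97 in the diet arrays. Its controls were at 11.20, 11.29 and 11.28. The arrays of each group were close together, and the difference of 0.76 (SE 0.14, adjusted p = 0.0318) was the smallest of the 10. Median centring lost the call (adjusted p = 0.103), as did leaving out the filter (0.061) or the variance trend (0.098). A fit of only these groups lost it too (adjusted p = 0.234). So did leaving out any 1 of the 6 arrays, with adjusted p from 0.109 to 0.2165. Of the 18 tested genes of the list for hyaluronan and heparan sulfate matrix, Itih3 and Sulf2 were called, both higher. The list's median difference was -0.07, against 0.00 over all probe sets tested, and 8 of its 18 genes were positive.

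Slc26a10 belongs to the family of anion transporters that also holds the thyroid's pendrin (probe set 1385298_at). It read 9.15, 9.36 and 8.97 on the diet against 7.88, 7.80 and 8.11 in controls, with no overlap. The difference was 1.23 (SE 0.20, adjusted p = 0.018).

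Dlg5, a scaffold protein of cell junctions and polarity (probe set 1377121_at), read 10.86, 11.11 and 11.23 on the diet against 9.97, 9.80 and 10.29 in controls. The difference was 1.04 (SE 0.18, adjusted p = 0.0289). Mab21l3, a mab-21-like gene (probe set 1391932_at), read 9.31, 8.99 and 9.48 against 7.90, 7.74 and 8.41, a difference of 1.24 (SE 0.20, adjusted p = 0.0231). In Slc5a5, Slc26a10, Dlg5, Mab21l3 and Itih3 control array 24 was the highest of the controls, but below every diet array.

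Igsf8, an immunoglobulin family membrane protein that associates with tetraspanins (probe set 1373793_at), was at 7.92, 7.63 and 7.81 on the diet and at 9.16, 9.10 and 8.71 in controls. It fell by 1.20 (SE 0.21, adjusted p = 0.0318), 2.30-fold lower. C13h1orf116 (probe set 1374434_at) was at 7.14, 7.19 and 7.14 against 8.34, 8.35 and 8.40. It fell by 1.21 (SE 0.21, adjusted p = 0.0289), and the arrays of each group nearly coincided. On the values as deposited neither fall was called, at adjusted p = 0.135 and 0.112, while all 9 calls made there were rises. Without the filter both falls also missed the threshold, each at adjusted p = 0.054.

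The remaining pair of calls lies outside the rule by which genes were named and was chosen after its values were seen. A dim probe set of Rflnb, an actin-binding refilin (1378168_at), read 5.73, 6.49 and 6.77 on the diet against 4.70, 4.55 and 4.67, a difference of 1.69 (adjusted p = 0.0318). The brighter probe set of the same gene differed by 0.53 (adjusted p = 0.891), so the gene's probe sets disagree. Probe set 1394522_at, which has no symbol in the annotation used, read 6.70, 6.61 and 6.95 against 4.96, 5.10 and 4.92, a difference of 1.76 (adjusted p = 0.0318). In both probe sets the controls were dim. With pseudocount 64 the differences were 0.83 for 1378168_at and 0.97 for 1394522_at, and neither was called (adjusted p = 0.161 and 0.0868). Neither was called without the filter (adjusted p = 0.062 and 0.061).

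The genes around the symporter in hormone synthesis did not pass the test. Of 21 genes in the list for hormone synthesis and iodide handling, 9 were tested, 5 lay below the filter on dim probe sets and 7 had no probe set with a single symbol. Slc5a5 was the 1 called gene, and 6 of the 9 had a positive difference, against 50.2% of all probe sets. Thyroglobulin Tg, the protein on which the hormone is built, stood at 13.75, 13.84 and 13.91 on the diet and 13.97, 13.87 and 13.57 in controls. These ranges overlap, and the difference was 0.03 (SE 0.10, adjusted p = 0.998). Duox2, the oxidase that makes hydrogen peroxide at the follicle lumen, differed by -0.03 (SE 0.22), with both signs close to 0 over the alternative settings. Duoxa1, a maturation factor of the dual oxidase family, read 9.64, 9.70 and 9.24 on the diet against 9.97, 10.08 and 10.03. All its diet arrays were below all controls, at -0.50 (SE 0.26, adjusted p = 0.885). Iyd, which recovers iodide from unused iodotyrosines, differed by 0.25 (SE 0.12, adjusted p = 0.871). Dio1, which converts the prohormone thyroxine to its active form, stood at 11.70, 10.44 and 10.55 against 9.71, 11.03 and 9.98, so the groups overlapped at a difference of 0.66 (SE 0.46). The chloride channel Ano1, implicated in iodide efflux, differed by 0.10, the potassium channel Kcnq1 by -0.47 and the sodium pump subunit Atp1b1 by 0.19, none with an adjusted p under 0.05. A second probe set of Atp1b1 differed by 0.65 (adjusted p = 0.518), and a second one of Tg by -0.03.

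The thyrotropin receptor Tshr stood at 10.05, 10.11 and 10.01 on the diet and 9.27, 9.97 and 10.07 in controls, a difference of 0.28 (SE 0.30, adjusted p = 0.983). The controls spread widely through array 21, and the groups overlapped. Of the 21 tested genes of the receptor and cAMP list 0 were called, 13 were positive and the median was 0.03. Pde4b, a phosphodiesterase that breaks down cAMP, was at 9.18, 9.17 and 8.98 against 8.75, 8.57 and 8.73, at 0.43 (SE 0.15, adjusted p = 0.615). It was the 1 member of this list whose diet arrays were all higher, and Adcy9, an adenylyl cyclase, was the 1 member whose diet arrays were all lower, at -0.77 (SE 0.25, adjusted p = 0.527). Over all probe sets tested, 5.79% had every diet array above every control and 6.54% had every diet array below. Pde4b passed in the other diet comparisons, at 0.79 (adjusted p = 0.0296) on day 14 and at 1.11 (adjusted p = 0.00154) under perchlorate.

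Of 15 tested genes of the list for thyroid transcription factors and follicular identity 0 were called, and 6 were positive. Pax8 differed by -0.10 (SE 0.11) and Nkx2-1 by -0.17 (SE 0.15), both of which drive follicular genes. The dimmer Pax8 probe set had the other sign, at 0.26 (adjusted p = 0.973). The keratins Krt19 and Krt7 of simple epithelia were lower in all diet arrays, at -0.94 (SE 0.31, adjusted p = 0.568) and -0.86 (SE 0.38, adjusted p = 0.814). Sod3, an extracellular superoxide dismutase, was higher in all diet arrays, at 0.59 (SE 0.21, adjusted p = 0.624).

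Behind the called genes, some of those with an unadjusted p under 0.001 and no overlap of the 6 arrays are given as values, because 0 of them passed the adjusted test. On the higher side Uroc1, the urocanase of histidine breakdown, stood at 7.48, 7.06 and 7.30 against 4.57, 5.88 and 4.67. This was the largest positive difference among the genes named here, 2.24, with a large error (SE 0.52, adjusted p = 0.17), with control 22 well above the other controls. Those other controls lay near the lowest value this scale allows. Over the 16 alternative settings the difference of Uroc1 ran from 1.30 to 3.14 and that of Itih3 from 1.83 to 2.32, so their order depends on the setting. The asparaginase gene Aspg read 7.56, 7.57 and 7.50 against 6.18, 6.66 and 5.23, at 1.52 (SE 0.36, adjusted p = 0.178). The diet arrays agreed closely while the controls spread. The list for amino acid breakdown had 7 tested genes, and only Uroc1 and Aspg among them did not overlap.

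The water channel gene Aqp1 read 10.44, 10.46 and 10.10 against 8.25, 8.75 and 9.23, at 1.59 (SE 0.35, adjusted p = 0.149), and its dimmer probe set differed by 0.25. Card9, an adaptor of innate immune signalling, differed by 1.46 (SE 0.32). Agr2, a disulfide isomerase of the endoplasmic reticulum, read 7.37, 7.63 and 8.10 against 6.59, 6.87 and 5.45, at 1.40 (SE 0.30, adjusted p = 0.13), and at -0.23 on day 14.

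On the lower side Angpt4, a ligand of the endothelial receptor TIE2, read 8.41, 8.34 and 8.18 against 9.80, 10.05 and 9.89. Its groups were tight and apart, at -1.60 (SE 0.34, adjusted p = 0.126). Nqo1, a quinone reductase, read 10.38, 9.52 and 10.01 against 10.87, 11.52 and 11.10, at -1.19 (SE 0.29, adjusted p = 0.218). The neuronal adhesion gene Astn1 differed by -1.27, the matrix protein gene Matn2 by -1.13 and Gramd2a by -1.01. Nab2, a corepressor of EGR transcription factors, differed by -0.88, the tRNA-modifying enzyme gene Cdkal1 by -0.82, Anks1b by -0.77 and the cation channel gene Trpc1 by -0.76. The clock output gene Dbp also belongs here and is described with the clock.

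The diet differences of these genes were then read in the other 2 sets of arrays, which share no array with the day 1 comparison or with each other. All comparisons came from the same fit and share its estimate of the spread of each probe set. Calls repeated between them are therefore not independent of each other. Of the 10 probe sets called at day 1, all 10 had the same sign after 14 more days and 5 were called there, where 0.22% of all probe sets were called. Under perchlorate 9 of the 10 had the same sign and 6 were called, where 3.66% of all were. Of the 48 probe sets that had an unadjusted p under 0.001 and no overlap but were not called, 43 (89.6%) kept their sign on day 14 and 43 (89.6%) under perchlorate. Over all probe sets tested the shares of equal sign were 61.1% and 61.5%, and the correlations of the differences across probe sets were 0.354 and 0.33, with probe sets that are not independent of each other.

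**Figure D2:**
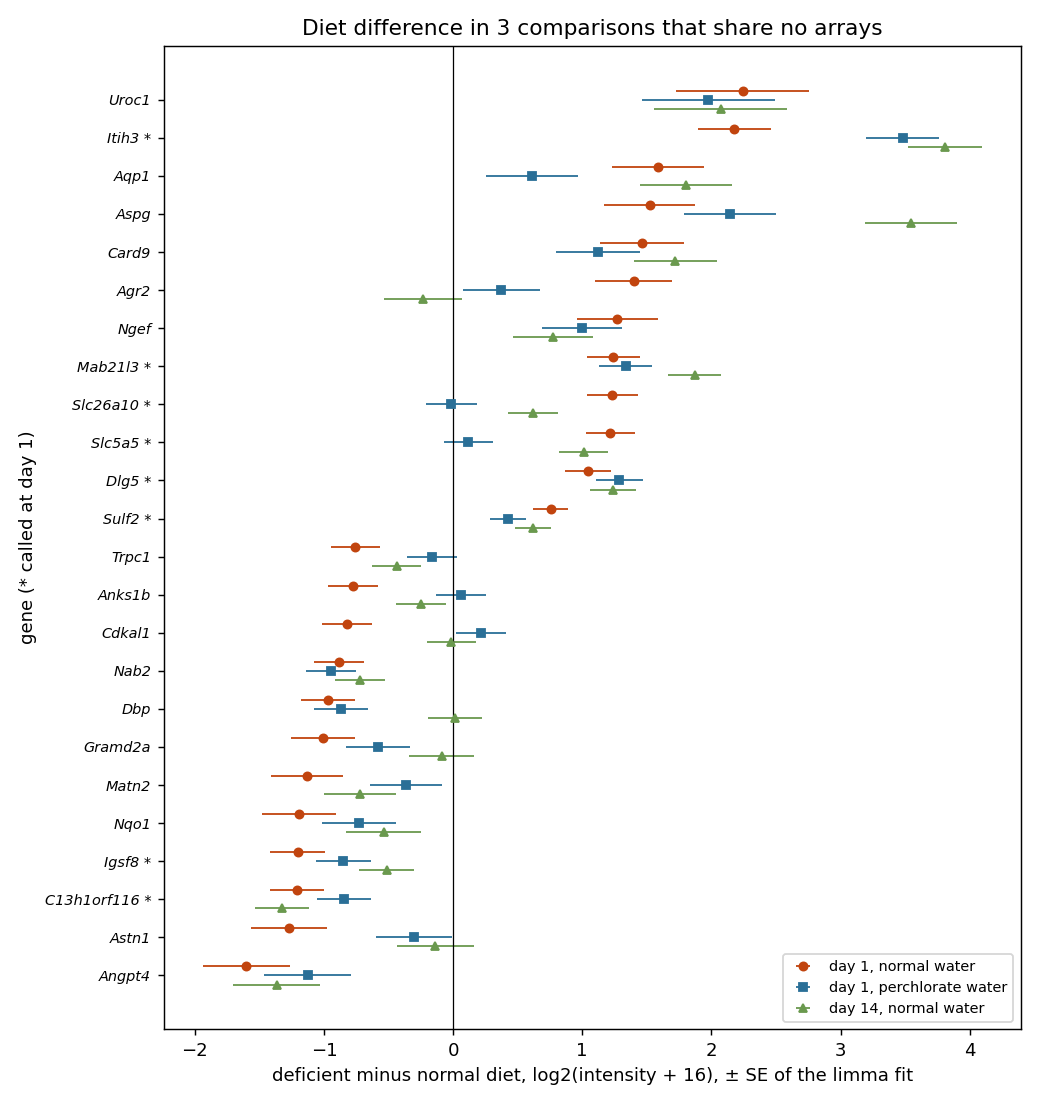
Diet difference of the called genes (marked with a star) and of the next genes in the 3 comparisons, in log2(intensity + 16), with bars for the SE of the fit. Itih3 is at 2.18 on day 1 and 3.81 on day 14, while Slc5a5 and Slc26a10 sit near 0 under perchlorate, at 0.12 and -0.01.

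Itih3 differed by 3.81 on day 14 (adjusted p = 1.446e-07) and by 3.48 under perchlorate (adjusted p = 7.885e-07). Mab21l3 differed by 1.87 (adjusted p = 5.394e-05) and 1.34 (adjusted p = 0.00306), and Dlg5 by 1.24 (adjusted p = 0.00314) and 1.29 (adjusted p = 0.00154). These 3 genes were thus called in each of the 3 comparisons, and without array 18 their perchlorate differences were 3.54, 1.30 and 1.30, all still called. C13h1orf116 fell by 1.32 on day 14 (adjusted p = 0.00774) and by 0.85 under perchlorate (adjusted p = 0.0326). Igsf8 was at -0.51 on day 14 (adjusted p = 0.412) and fell by 0.85 under perchlorate (adjusted p = 0.035). Without array 18 the perchlorate calls of Igsf8 and C13h1orf116 were lost, at adjusted p = 0.117 and 0.0934, and so was that of probe set 1394522_at, at 0.117. Sulf2 was at 0.62 on day 14 (adjusted p = 0.0515) and at 0.43 under perchlorate (adjusted p = 0.0785), and without array 18 at 0.55 (adjusted p = 0.042).

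Slc5a5 rose by 1.01 on day 14 (adjusted p = 0.0269), but under perchlorate its diet difference was 0.12 (adjusted p = 0.719), or 0.27 without array 18. The perchlorate arrays on normal diet read 11.51, 11.98 and 12.19 and those on deficient diet 11.94, 12.07 and 12.03. The former were thus already above the untreated controls of that day. Slc26a10 read 8.74, 8.86 and 9.33 there on normal diet and 8.88, 9.08 and 8.94 on deficient diet, a difference of -0.01 (adjusted p = 0.975). The test of whether the diet difference itself differed with perchlorate gave -1.10 for Slc5a5 (SE 0.27, adjusted p = 0.33) and -1.25 for Slc26a10 (SE 0.28, adjusted p = 0.275), so neither was called. It called 2 of all probe sets, 0.0107%.

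The test of the day 14 diet difference minus that of day 1 called 0 probe sets, 0% of those tested, with 502 (2.7%) at an unadjusted p under 0.05 by limma and 0 called with array quality weights. For Itih3 this difference was 1.63 (SE 0.40, adjusted p = 1) and for Aspg 2.03 (SE 0.50, adjusted p = 1). Agr2 was at -1.63 (SE 0.42) and Dbp at 0.98 (SE 0.30), with the same adjusted p. Aqp1, Card9 and Aspg, which missed the test on day 1, were called on day 14, at 1.80 (adjusted p = 0.0349), 1.72 (adjusted p = 0.0269) and 3.55 (adjusted p = 1.699e-05).

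The gene lists were described by the number of members whose 6 arrays did not overlap, beside the 5.79% higher and 6.54% lower over all probe sets, and by their median difference, beside 0.00 over all.

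**Figure D3:**
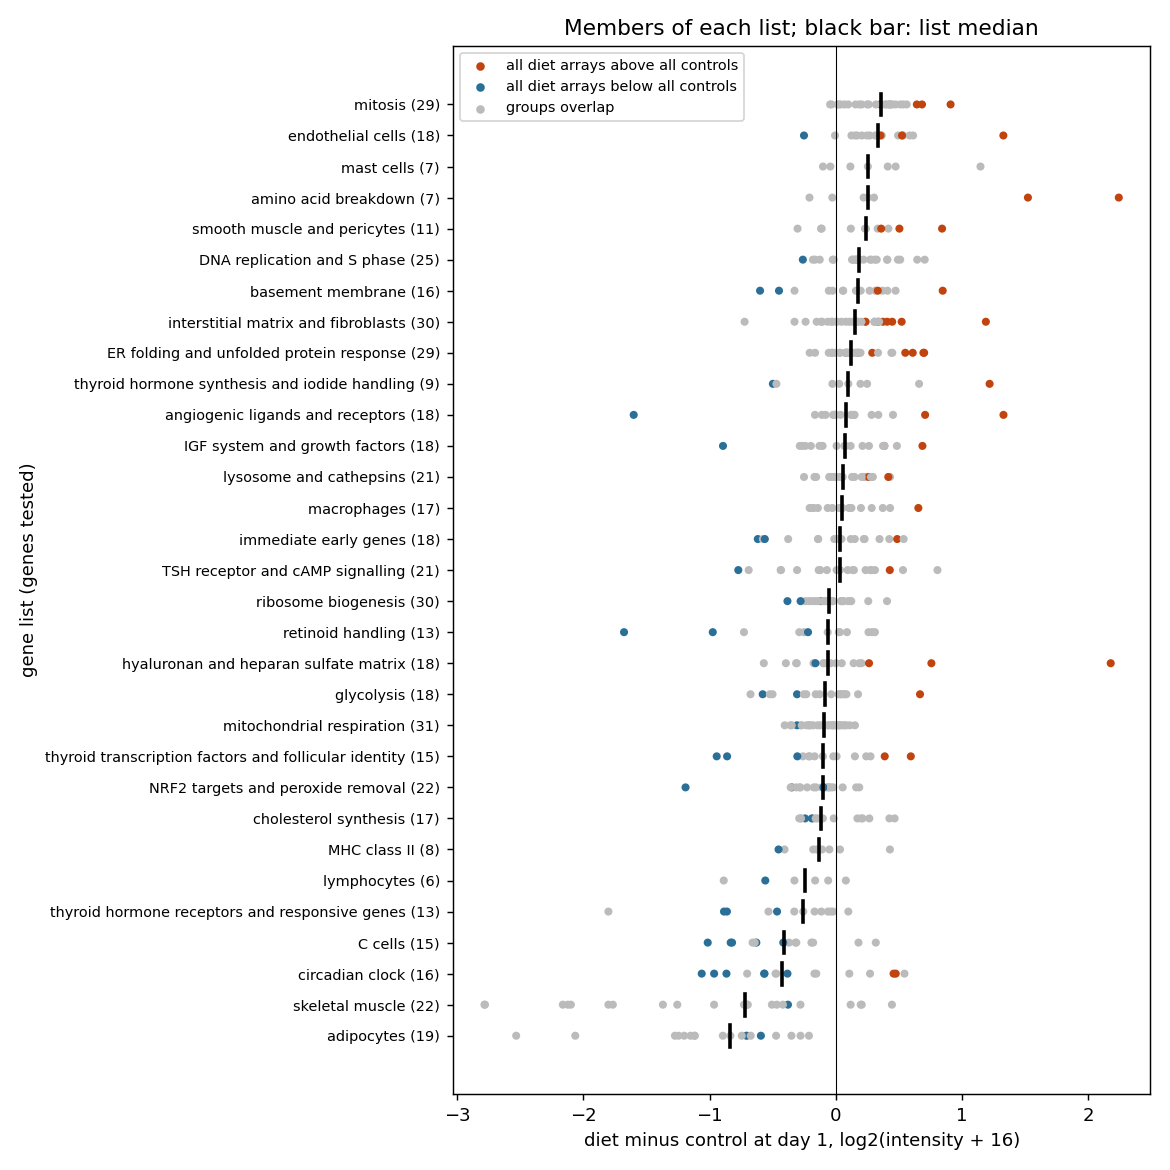
Diet minus control difference at day 1, in log2(intensity + 16), for every tested member of each list with at least 6 tested genes. Colour shows members whose diet arrays were all above or all below the controls, and the black bar is the list median, from -0.84 in adipocyte markers to 0.36 in mitosis genes.

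The circadian clock list held 16 tested genes, of which 0 were called. In 6 of them every diet array was below every control and in 2 every diet array was above, with a median of -0.43. Dbp, an output gene driven by the clock's activator pair, read 7.34, 7.53 and 7.96 against 8.72, 8.41 and 8.60, at -0.96 (SE 0.21, adjusted p = 0.131). Nr1d1, which encodes the repressor REV-ERB alpha, read 7.71, 8.10 and 8.48 against 9.15, 8.97 and 8.77, at -0.87 (SE 0.26, adjusted p = 0.451). In both genes diet array 12 was the nearest to the controls.

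Per3, a period repressor, read 5.60, 7.33 and 7.37 against 7.85, 7.74 and 7.91, so that much of its difference of -1.06 (SE 0.30) came from diet array 8. The repressor gene Bhlhe40 stood at -0.57, Nr1d2 at -0.57 and Tef, a relative of Dbp, at -0.38, all without overlap, while Bhlhe41 at -0.70 overlapped in 1 pair of arrays. A dimmer probe set of Tef was at -0.86 (adjusted p = 0.17). On the other side were Bmal1, which encodes the activator, at 7.92, 7.44 and 7.61 against 7.26, 7.07 and 7.21, a difference of 0.47 (SE 0.21). Cry1, a repressor whose transcript peaks later in the cycle, differed by 0.46 (SE 0.30). On day 14 the list's median was -0.10, with Dbp at 0.02 (SE 0.21). Dbp then read 7.62, 7.27 and 7.61 on the diet and 7.63, 7.35 and 7.47 in controls, so these controls were below all those of day 1. Nr1d1 was lower on day 14 than on day 1 in both groups, with controls at 7.32, 7.39 and 7.85. Under perchlorate the list's median was -0.18, with Nr1d1 falling by 1.36 (adjusted p = 0.00997) and Dbp by 0.86 (adjusted p = 0.0308). Without array 18 the Dbp call was lost there, at adjusted p = 0.109, and that of Nr1d1 was kept, at 0.0384. The labels give no hour of tissue collection.

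**Figure D4:**
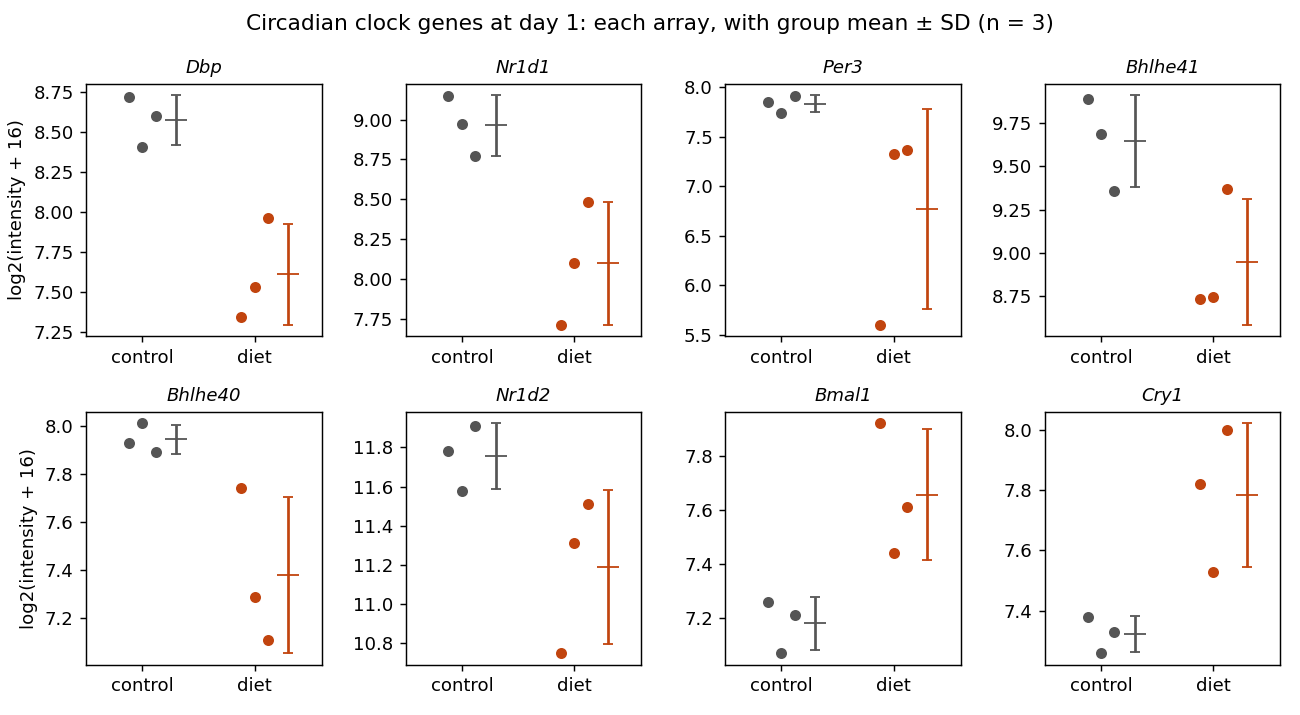
Level of 8 clock genes in each day 1 array, as log2(intensity + 16), with group means and SD (n = 3), on axes that do not start at 0. Dbp, Nr1d1, Per3, Bhlhe40 and Nr1d2 lie lower in the diet arrays without overlap, Bhlhe41 overlaps, and Bmal1 and Cry1 lie higher.

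In the list for folding in the endoplasmic reticulum and the unfolded protein response, 8 of 29 tested genes had every diet array above every control and 0 had every array below. Its median was 0.12, 23 of the 29 were positive and 0 were called. Dnajc3, a chaperone partner of BiP, read 12.33, 12.33 and 12.19 against 11.45, 11.48 and 11.81, at 0.70 (SE 0.20, adjusted p = 0.42). Sdf2l1, another lumenal chaperone component, read 12.71, 12.83 and 12.33 against 11.83, 12.23 and 11.98, at 0.61 (SE 0.17, adjusted p = 0.418). In Dnajc3 the gap between the groups was wider than the spread in either, and in Sdf2l1 it was narrower.

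Hyou1 and the disulfide isomerase gene Pdia3 differed by 0.69 and 0.55, and in both control 22 was the lowest array, at 9.78 and 12.62, against 10.57 and 13.52 or more in every other day 1 array of this comparison. The list's median ran from 0.09 to 0.16 when 1 array was left out in turn. On day 14 it was 0.00, with 14 of 29 positive.

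Among the lysosomal genes, which digest thyroglobulin, 2 of 21 had every diet array higher and the median was 0.05. Ctsh, a cathepsin, read 12.70, 12.27 and 12.68 against 12.21 or less in each control, at 0.42 (SE 0.17, adjusted p = 0.726). Ctsl, another cathepsin, differed by 0.22 (SE 0.09, adjusted p = 0.731).

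Of 18 endothelial markers 16 were positive, with a median of 0.33, 3 higher and 1 lower without overlap, and 0 called. Cd93, an endothelial lectin-like receptor, read 10.37, 11.09 and 10.58 against 8.96, 9.61 and 9.49, at 1.33 (SE 0.44, adjusted p = 0.56). Clec14a differed by 0.61 (SE 0.28), Pecam1 by 0.58 (SE 0.29) and the TIE2 receptor gene Tek by 0.49 (SE 0.22), each with overlap. The summed intensity of the list in diet arrays 8, 9 and 12 was 20810, 30840 and 29090, against 22670, 19320 and 20060 in controls 21, 22 and 24, so array 8 lay within the controls. By the mean log2 level of the list the groups did not overlap, with 9.71, 10.12 and 10.04 against 9.62, 9.60 and 9.56. The part of endothelial content in the values of Cd93 was not tested. In whole tissue, a change in the number of cells of a type and a change in RNA per cell cannot be told apart. On day 14 all 18 endothelial markers were positive, with a median of 0.70 and 0 called.

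Of the angiogenic ligands and receptors 18 were tested and 0 were called. The peptide ligand gene Apln read 9.14, 8.94 and 8.87 against 7.30, 8.15 and 7.52, at 1.33 (SE 0.48, adjusted p = 0.615), and its dimmer probe set differed by 0.51. The TIE2 ligand gene Angpt2 read 8.90, 8.67 and 9.13 against 8.16, 8.44 and 7.98, at 0.71 (SE 0.30, adjusted p = 0.787). Both, on these probe sets, lay above the controls in every diet array, opposite in sign to Angpt4.

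In the basement membrane list, 16 genes were tested, 2 higher and 2 lower without overlap. The laminin chain gene Lamb1 read 10.41, 10.50 and 10.96 against 10.19, 9.36 and 9.78, at 0.85 (SE 0.23, adjusted p = 0.368). Lamb2 was at -0.45 (SE 0.18) and Lamb3, a chain of epithelial laminin, at -0.60 (SE 0.26, adjusted p = 0.794). Lamb3 fell on day 14 by 1.44 (adjusted p = 0.0217). The interstitial matrix list had 7 of 30 genes higher and 0 lower without overlap, with a median of 0.15 and 0 called.

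Of 29 mitosis genes 27 were positive with a median of 0.36, 4 were higher without overlap and 0 were called. The list rested on diet array 9: its mean level was 8.11 there, against 7.24 and 7.12 in diet arrays 8 and 12 and 7.08 to 7.24 in the controls. Without array 9 the list's median was 0.04. The proliferation marker Mki67 read 7.85, 9.37 and 7.90 against 8.18, 7.54 and 8.07, at 0.45 (SE 0.54), and at -0.05 without array 9. Cyclin A2, Ccna2, read 6.75, 7.40 and 6.25 against 6.10, 5.57 and 6.01, at 0.91 (SE 0.46). Birc5 was at 0.68 (SE 0.24) and Prc1 at 0.64 (SE 0.37). On day 14 the list's median was 1.13, with all 29 genes positive and 0 called.

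Of 13 tested thyroid hormone receptors and responsive genes 12 were negative, with a median of -0.26, 3 lower without overlap and 0 called. Thrsp, a lipogenic gene induced by thyroid hormone in fat and liver, read 12.21, 11.26 and 12.06 against 12.29, 13.43 and 12.47, at -0.89 (SE 0.35, adjusted p = 0.726). Hr was at -0.47 (SE 0.21) and the retinoid receptor gene Rxrg at -0.86 (SE 0.37). This list's median was -0.06 on day 14, with 3 of 13 genes positive, and 0.19 under perchlorate, with 7 of 13 positive. In the retinoid handling list Stra6, the membrane receptor for retinol uptake, read 8.04, 8.64 and 7.83 against 10.14, 9.99 and 9.42, at -1.68 (SE 0.58, adjusted p = 0.601). All 4 of its probe sets were negative, from -1.83 to -1.34. Aldh1a1, which oxidises retinaldehyde, was at -0.98 (SE 0.41). Of the 13 tested genes of this list 6 were positive, 3 were lower and 0 higher without overlap, 0 were called, and the median was -0.06.

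The thyroid lies against fat, muscle and parathyroid, and markers of other cells varied between these 6 arrays. All 19 tested adipocyte markers were negative, with a median of -0.84, 0 called and 2 lower without overlap, the lipase genes Lipe (-0.59) and Pnpla2 (-0.71). The summed intensity of this list was 23080, 13400 and 11240 in diet arrays 8, 9 and 12, and 16130, 58320 and 24830 in controls 21, 22 and 24. The groups overlapped, and control 22 was the highest. The brown fat gene Ucp1 read 11.02, 9.53 and 6.59 against 10.16, 12.79 and 11.80. Over the other groups the list's summed intensity ran from 7363 to 37230. Thrsp, Pnpla2 and Ucp1 were highest in control 22 too, and the part of fat in these values was not tested.

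Of 22 skeletal muscle markers 18 were negative, with a median of -0.72 and 0 called. Their summed intensity was 20140, 16340 and 41030 in diet arrays 8, 9 and 12 and 45370, 37440 and 22510 in controls 21, 22 and 24. The actin gene Acta1 read 6.06, 5.54 and 10.99 against 12.17, 10.79 and 7.97, so diet 12 was with the controls and control 24 was between. The part of muscle in other values was not tested.

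**Figure D5:**
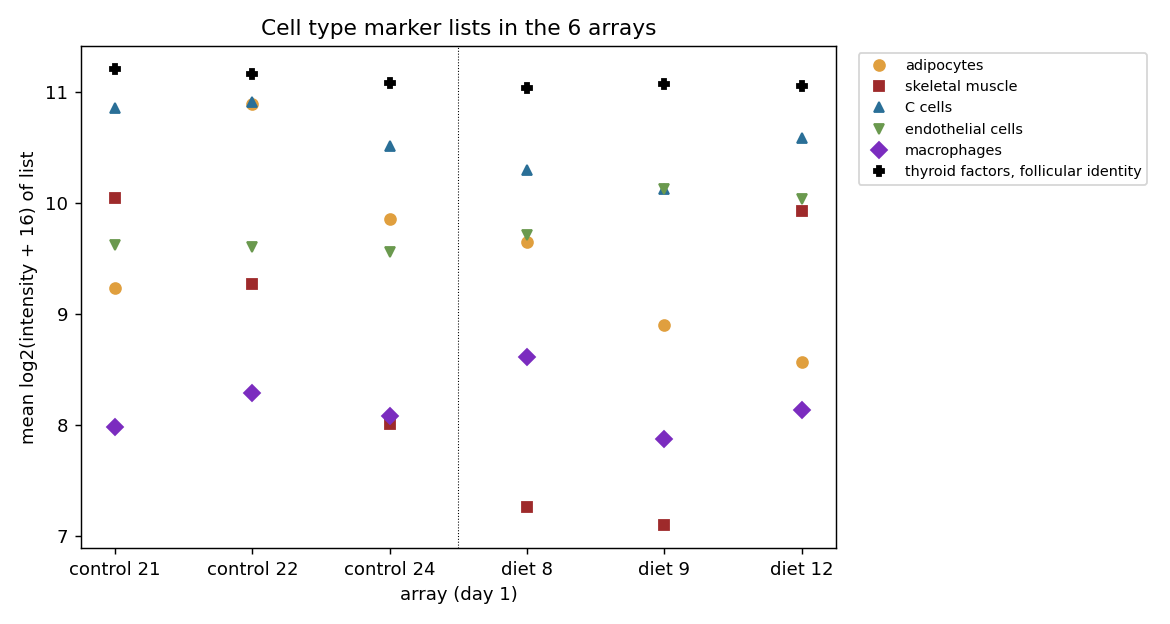
Mean log2(intensity + 16) of 6 marker lists in the 6 day 1 arrays, where points are arrays and the dotted line parts controls from diet. Muscle ranges from 7.09 to 10.04 and fat from 8.56 to 10.89 with overlap between the groups. The list for follicular identity has a narrower range but no overlap, with diet arrays at 11.04 to 11.07 and controls at 11.08 to 11.21.

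C cells, which secrete calcitonin, sit between the follicles. Of 15 tested C cell and neuroendocrine markers 13 were negative, with a median of -0.41, 5 lower without overlap and 0 called. Uchl1, a neuronal ubiquitin hydrolase, read 8.58, 8.30 and 8.81 against 9.60, 9.72 and 9.41, at -1.02 (SE 0.32, adjusted p = 0.513). Pcsk1n, an inhibitor of prohormone convertase, was at -0.83 (SE 0.31), and the vesicle protein gene Syp at -0.63 (SE 0.28). The calcitonin gene Calca itself read 13.47, 13.26 and 13.52 against 13.70, 13.50 and 13.63, at -0.19 (SE 0.15, adjusted p = 0.97), with overlap of 1 array, and its other probe sets were at -0.60 and 0.06. The list's median was -0.88 on day 14 and -0.63 under perchlorate. Its summed intensity in diet arrays 8, 9 and 12 was 37870, 40220 and 49590, against 56260, 48530 and 47120 in controls 21, 22 and 24, and overlapped through diet 12.

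Macrophage markers had a median of 0.05, with 11 of 17 positive and 1 higher without overlap, the scavenger receptor gene Cd163, at 8.17, 7.59 and 7.97 against 7.06, 7.29 and 7.42 (0.65, SE 0.30). Mast cell markers had a median of 0.25 over 7 genes. Their tryptase gene Tpsab1 was highest in diet array 8, at 7.36 against 5.24 and 6.24 in diet arrays 9 and 12 and 4.84 to 5.62 in controls.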

How the data were processed

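Rat thyroid RNA was hybridised to 24 Affymetrix arrays. The authors deposited 1 linear intensity per probe set, made with GCOS per the submitters' processing notes; its version and scaling target are not given in the sources used here. Array medians of log2(intensity + 16) ran from 6.63 to 7.19, so 31042 probe sets (57 controls left out) were quantile normalized. The dimmest 40% by mean signal were then left out. A limma 3.58.1 model (R 4.3.3) took a mean for each of the 8 groups, with a variance trend and 16 residual degrees of freedom, and p-values were two-sided with Benjamini-Hochberg adjustment across all 18625 probe sets. The scripts were tested on simulated data.

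By the platform annotation 20826 probe sets carried 1 symbol, 436 several and 9780 none. The brightest tested probe set represents a gene. Named are all called genes, the largest differences on each side (up to 12, called genes included) with an unadjusted p under 0.001 and no overlap, the hormone synthesis list, and up to 4 members of each other list by smallest p. Tshr, Pax8, Nkx2-1, Bmal1, Bhlhe41, Nr1d2, Tef, Cry1, Ucp1, Mki67, Calca, Pecam1 and Mta1 were added after their values were seen. Members and lists were chosen with earlier results of these data known. Alternatives were the deposited values, median centring, pseudocounts 1 and 64, no filter, only the groups compared, array weights, no trend, and leaving out arrays. The precision is limited by 3 arrays per group, and no detection calls were used.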

Additional observations from a re-analysis of the deposited data

Results flagged for a closer look

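For 2 genes the diet difference at day 1 itself differed with and without perchlorate, by limma's test of that difference. For Mta1, a component of a chromatin remodelling complex, it was -1.97 (SE 0.30, adjusted p = 0.0274). Mta1 read 7.11, 6.80 and 6.80 on the diet against 6.44, 6.07 and 6.51 in controls (0.56, adjusted p = 0.649), and under perchlorate 5.39, 4.98 and 5.64 on the diet against 6.87, 6.61 and 6.75 (-1.41, adjusted p = 0.00262). For Gpc4, a glypican that carries heparan sulfate, it was 1.47 (SE 0.24, adjusted p = 0.0392). Gpc4 read 10.80, 11.44 and 11.06 against 11.37, 11.25 and 11.63 (-0.32, adjusted p = 0.891), and under perchlorate 11.58, 11.89 and 11.53 against 10.54, 10.67 and 10.31 (1.16, adjusted p = 0.00215). Both calls were lost without array 18, each at adjusted p = 0.05003, and a fit restricted to the 4 groups of the contrast called neither (adjusted p = 0.974). Mta1 was named for this test alone.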

How the results depend on the processing

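Over 91 genes and 16 alternatives, 1348 of 1456 values kept their direction and side of the threshold and 14 reversed. Most of these genes were not called in the main fit, and for those staying uncalled counts as kept. Of the called probe sets only Itih3 kept its call in all 16. Slc5a5 and Slc26a10 kept it in 11, Mab21l3 in 10, Dlg5 in 9 and Igsf8 in 8. C13h1orf116 and 1394522_at kept it in 7, Sulf2 in 6 and the Rflnb probe set in 5. The other settings lost the call with the direction unchanged. The count of day 1 calls, 10, was 6 without the filter, 2 in a fit of only the groups compared, 96 with array weights, 24 without arrays 18 and 22, and 1 to 28 without single arrays. The deposited scale shifted the median difference of all probe sets by 0.131. The day 14 minus day 1 count, 0, was 1 in a fit of only its groups and 0 without any single array. The diet by perchlorate count, 2, was 0 on deposited values, without the filter, in a fit of only its groups and without arrays 18 and 22, 1 without the trend, 5 with array weights, and 0 to 2 without single arrays. The day 14 count, 41, was 63 with median centring, 21 without the filter, 518 in a fit of only its groups, 915 with array weights, 219 without arrays 18 and 22, and 6 to 151 without single arrays. The count under perchlorate, 682, was 2079 on deposited values, 322 without the filter, 1 in a fit of only its groups, and 147 to 2747 without single arrays. Reversed values were as follows. Ano1 was -0.089 without arrays 18 and 22 and -0.089 to 0.26 without single arrays. Tg was -0.061 with median centring and -0.089 to 0.11 without single arrays. Duox2 was 0.13 on deposited values, 0.041 with median centring, 0.11 with array weights, 0.090 without arrays 18 and 22, and -0.15 to 0.10 without single arrays. Pax8 was 0.059 on deposited values, and Mki67 was -0.052 to 0.71 without single arrays. The cause of these changes was not tested. No paired analysis was possible because the groups share no replicate numbers.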
